A study of Homo sapiens with 6 samples.

Results

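The 37 genes described here encode the machinery of autophagy and its transcriptional regulators. They were taken by symbol from a table of read counts for 23228 genes, in which all 37 were found. Messenger RNA was sequenced from U2OS, an established human osteosarcoma cell line, harvested 48 hours after transfection with a lipid reagent, in 3 libraries that received scrambled siRNA and 3 that received ALKBH5 siRNAs. ALKBH5 is an enzyme that removes the methyl group of N6-methyladenosine from RNA. The labels give no siRNA sequences and no rescue, so loss of ALKBH5 and any other action of its siRNAs cannot be told apart. They also do not say whether the replicates were separate cultures. The p-values therefore reflect the spread among these 6 libraries, and that spread may be technical.

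Autophagy delivers cytoplasm and organelles to the lysosome inside a double-membraned vesicle, the autophagosome. A kinase complex built around ULK1 starts the process, a lipid kinase complex built around beclin 1 marks the membrane with phosphatidylinositol 3-phosphate (PI3P), and a pair of ubiquitin-like conjugation systems attaches proteins of the LC3 and GABARAP family to it. Cargo receptors such as p62 bind both the cargo and these proteins, and transcription factors of the MiT/TFE family switch on autophagy and lysosomal genes.

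The targeted gene was checked first. ALKBH5 stood at 138, 148 and 143 CPM (a gene's reads relative to all gene reads of the library, scaled to a common total) in the scrambled libraries and at 19.4, 16.2 and 15.7 CPM in the knockdown libraries (exact permutation p = 0.1, 2-sided, the smallest that 3 against 3 libraries allow). Reads in genes ranged from 18817181 to 23410007 per library. Of the uniquely placed reads, 15.3% ± 0.23 fell outside genes in scrambled and 17.9% ± 0.66 in knockdown libraries (SD, n = 3), and the part of this difference in the results was not tested. Of the osteoblast markers RUNX2, COL1A1 and SPARC were present at 25.3, 1526 and 2030 CPM in scrambled libraries, IBSP had 0 reads, and SP7 and BGLAP were too low to test. ALPL, COL1A2 and SPP1 were at 3.97 ± 0.52, 4.44 ± 4.62 and 15.4 ± 2.87 CPM in scrambled libraries. The 9 osteoblast markers summed to 3471 to 3688 CPM in scrambled and 3083 to 3766 CPM in knockdown libraries, mostly from COL1A1 and SPARC. The leukocyte marker CD3E had 0 reads. The 4 endothelial markers summed to 6.22 to 8.74 CPM in scrambled and 1.37 to 2.41 CPM in knockdown libraries, the 5 leukocyte markers to 10.9 to 12 and 7.42 to 10.6 CPM, and the 6 epithelial markers to 506 to 598 and 551 to 583 CPM. Called markers went both ways within the osteoblast and epithelial lists, with 2 higher and 2 lower in each. COL1A1 rose to 2017 CPM and SPARC fell to 1428 CPM, while KRT8 fell from 356 to 261 CPM and KRT18 rose from 180 to 294 CPM. Of the leukocyte and the endothelial markers 2 each were lower and 0 higher. The part of these markers in the results was not tested. In bulk RNA of a cell line, fewer cells with a transcript and less of it per cell cannot be told apart.

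The autophagy genes moved in both directions, with beclin 1 (BECN1) the lowest and TBC1D5 the highest by fold change. Of 36 tested genes 14 rose and 12 fell at an adjusted p under 0.05 (edgeR), and 10 were not called. Over the 36 the share called was 72.2%, against 61.6% of all 14504 tested genes. By direction, 38.9% were higher and 33.3% lower, against 30.8% and 30.8% of all tested genes. The groups' CPM values did not overlap in 28 of the 36, against 67.4% of all tested genes. Changes of 2-fold or more were called in 5 of the 36, or 13.9%, against 20% of all tested genes. The median log2 fold change of knockdown over scrambled (log2FC) was 0.15, against 0.01 over all tested genes, and the median absolute log2 fold change was 0.38 against 0.46. The untested gene was MAP1LC3A, an LC3 isoform, with 0 reads in 5 libraries and 1 read in the other. A count of 0 allows up to 3 reads, or 0.125 to 0.158 CPM in these libraries, for counting error only.

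**Figure D1:**
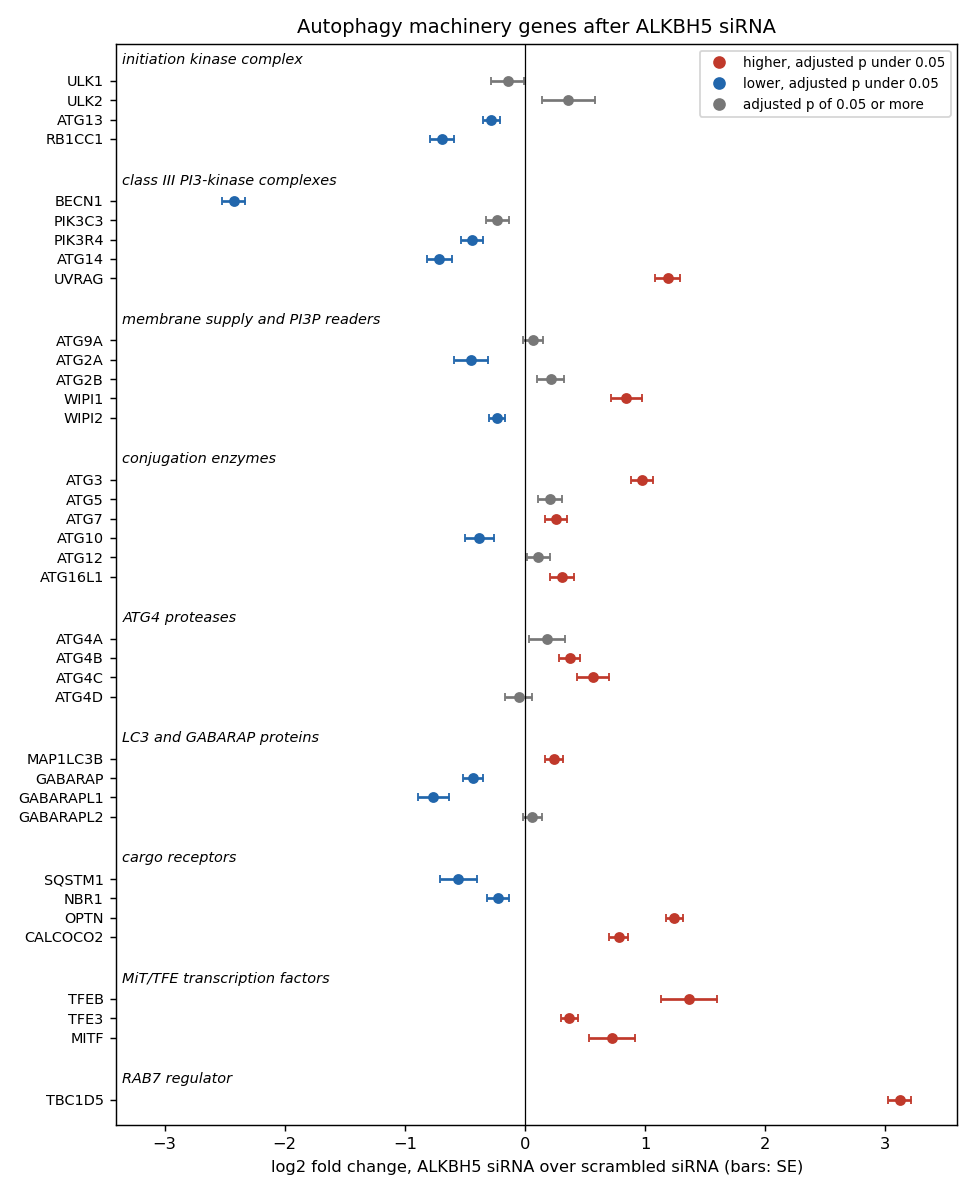
Log2 fold change of the 36 tested autophagy genes (horizontal axis, ALKBH5 siRNA over scrambled siRNA), grouped by role, with bars of 1 SE. TBC1D5 at 3.12 and BECN1 at −2.42 lie at the ends, and all 3 MiT/TFE factors lie above 0.

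TBC1D5 had the largest change. It encodes a GTPase-activating protein for RAB7 that associates with retromer and can bind LC3. Its gene lies at chr3:17157162-18444817 on the minus strand (GRCh38, GENCODE 29). It was read at 21.4, 21.8 and 23.2 CPM in the scrambled libraries and at 180, 211 and 186 CPM in the knockdown libraries. Every knockdown library lay far above every control. The level was 8.68-fold higher (log2FC 3.12, SE 0.09, adjusted p = 1.2e-09), and 61 of all tested genes had a larger log2 fold change. No annotated gene shared its exons.

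In the initiation complex RB1CC1 and ATG13 fell, and neither ULK kinase was called. ULK1, its catalytic kinase, was measured at 66.6, 68.7 and 60.1 CPM in scrambled and 70.6, 46.1 and 60.4 CPM in knockdown libraries, so the groups overlapped (log2FC −0.14, SE 0.14, adjusted p = 0.39). Its paralog ULK2 was at 7.33 ± 1.79 and 9.46 ± 2.26 CPM (SD, n = 3, log2FC 0.36, adjusted p = 0.17) and was called without knockdown replicate 3 (adjusted p = 0.035) and with the replicate number as a block (adjusted p = 0.026). RB1CC1 encodes FIP200, the scaffold of the complex. It fell from 199, 196 and 177 CPM to 129, 123.4 and 101 CPM with no overlap (log2FC −0.69, SE 0.10, adjusted p = 6.5e-05). ATG13, the adaptor that links the kinase to FIP200, fell by less, from 121 ± 1.71 to 100 ± 4.52 CPM (log2FC −0.28, adjusted p = 0.0061).

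In the lipid kinase complexes BECN1 and ATG14 fell while UVRAG rose. Beclin 1 is the regulatory subunit shared by these complexes, and its gene lies at chr17:42810134-42833350 on the minus strand (GRCh38, GENCODE 29). BECN1 was at 99.1, 99.7 and 93.1 CPM in scrambled and at 19.4, 16.4 and 18.6 CPM in knockdown libraries, resting on 1780 to 2380 and 312 to 379 reads. The highest knockdown library was thus well below the lowest control. BECN1 was 5.37-fold lower (log2FC −2.42, SE 0.10, adjusted p = 4.0e-09), and 164 of the tested genes, or 1.13%, had a lower log2 fold change. Its exons share 23.5% of their bases with CNTD1 on the opposite strand, which held 6 to 28 reads per library, far fewer than BECN1. CNTD1 was itself lower (log2FC −1.20, adjusted p = 0.010), and the part of the overlap in the BECN1 value was not tested.

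ATG14 and UVRAG bind beclin 1 in separate complexes. ATG14 directs the kinase to forming autophagosomes, and UVRAG directs it to endosomes and later steps. ATG14 fell from 39.1, 38.3 and 38.5 CPM to 21.6, 22.6 and 26.5 CPM (log2FC −0.71, SE 0.10, adjusted p = 8.6e-05). UVRAG rose from 17.3, 18.2 and 18.9 CPM to 37.2, 44 and 42.7 CPM (log2FC 1.19, SE 0.11, adjusted p = 1.4e-06). Neither gene's groups overlapped. Per kilobase of transcript, the ratio of UVRAG to ATG14 was 0.508, 0.545 and 0.566 in the scrambled and 1.98, 2.24 and 1.85 in the knockdown libraries. The order of the pair was thus opposite in the groups. This ratio was chosen after the values were seen and has no test of its own.

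PIK3R4, the VPS15 subunit, fell from 55.9 ± 1.55 to 41.2 ± 2.52 CPM (log2FC −0.44, adjusted p = 0.00097). The catalytic subunit PIK3C3 was at 31.4 ± 0.94 and 26.8 ± 1.52 CPM and missed the threshold (log2FC −0.23, adjusted p = 0.056). It was called with library totals in place of TMM scaling (adjusted p = 0.020) and with the replicate number as a block (adjusted p = 0.039). BECN1 was the most abundant of the 5 subunits per length in scrambled cells, at 46.1 ± 1.72 CPM per kilobase, and stood at 8.59 ± 0.73 after knockdown, next to UVRAG at 10.0 ± 0.88 and PIK3R4 at 8.21 ± 0.50.

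**Figure D2:**
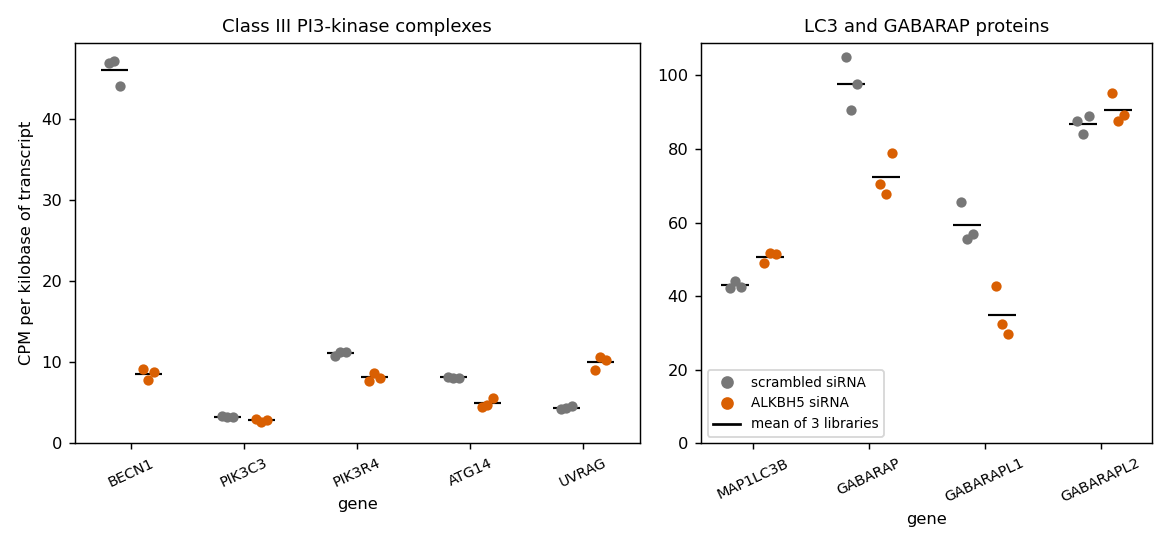
Levels per kilobase of transcript (vertical axis, CPM per kilobase, linear from 0) in each library for the lipid kinase subunits and the tested LC3 and GABARAP genes, with a bar at the mean of 3 libraries. BECN1 drops from 46.1 to 8.59 on average while UVRAG rises from 4.40 to 10.0, and GABARAPL1 drops from 59.3 to 35.0.

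Among the 5 genes of membrane supply and PI3P reading, WIPI1 rose, WIPI2 and ATG2A fell, and ATG9A and ATG2B were not called. WIPI1, which binds PI3P on the forming membrane, rose from 28.5, 27.3 and 24.6 CPM to 48.3, 39.6 and 56.5 CPM without overlap (log2FC 0.84, SE 0.13, adjusted p = 0.00012). Of its exon bases 28.5% are shared with ARSG on the opposite strand, which had 25 to 73 reads per library. Its paralog WIPI2, which recruits ATG16L1, fell from 249 ± 9.04 to 212 ± 0.87 CPM (log2FC −0.23, adjusted p = 0.011).

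ATG9A, the transmembrane scramblase, of whose exon bases 43.5% are shared with another gene model on the same strand, was at 74.2 ± 5.30 and 77.8 ± 3.37 CPM (adjusted p = 0.51). The lipid transfer proteins ATG2A and ATG2B are paralogs, and ATG2A fell from 51.3 ± 3.23 to 37.6 ± 8.23 CPM (log2FC −0.45, adjusted p = 0.017). ATG2A was not called when scrambled replicate 2 was left out (adjusted p = 0.077), and its log2 fold change was −0.29 without knockdown replicate 2, the library in which it was lowest. ATG2B was at 28.4 ± 3.55 and 32.9 ± 2.06 CPM (log2FC 0.21, adjusted p = 0.12).

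In the conjugation systems ATG3 rose the most. ATG3 is the E2-like enzyme that transfers LC3 to phosphatidylethanolamine. It went from 53.9, 56.5 and 57.4 CPM to 98.6, 120 and 112 CPM, so the groups were well apart (log2FC 0.98, SE 0.09, adjusted p = 2.0e-06). ATG7, the E1-like enzyme of both systems, rose from 34.0, 31.5 and 34.9 CPM to 38.9, 41.2 and 39.9 CPM (log2FC 0.26, SE 0.09, adjusted p = 0.028). These groups did not overlap, but ATG7 was not called without scrambled replicate 1 (adjusted p = 0.065), without scrambled replicate 2 (adjusted p = 0.13), without knockdown replicate 2 (adjusted p = 0.052) and with library totals (adjusted p = 0.076). VGLL4, which overlaps 32.2% of the exon bases of ATG7 on the opposite strand, fell from 153 ± 16.3 to 64.5 ± 8.64 CPM, and the part of that overlap in the ATG7 value was not tested.

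ATG5, which is joined to ATG12, was at 46.1, 42.2 and 41.8 CPM in scrambled and 52.8, 53.0 and 44.4 CPM in knockdown libraries. The groups overlapped (log2FC 0.21, SE 0.10, adjusted p = 0.089), and ATG5 was called without knockdown replicate 3 (adjusted p = 0.023) and with the replicate number as a block (adjusted p = 0.046). ATG12 itself was at 45.8 ± 0.84 and 49.5 ± 5.19 CPM (adjusted p = 0.33). ATG16L1, which carries the ATG5 conjugate to the membrane, rose from 43.4 ± 2.74 to 53.8 ± 5.29 CPM (log2FC 0.31, adjusted p = 0.017), not called without scrambled replicate 3 (adjusted p = 0.067) or knockdown replicate 2 (adjusted p = 0.056). ATG10, the E2-like enzyme for ATG12, fell from 13.7 ± 0.23 to 10.5 ± 0.39 CPM (log2FC −0.38, adjusted p = 0.015).

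Of the 4 ATG4 proteases, which trim LC3 and GABARAP proteins before conjugation and release them afterwards, 2 rose. ATG4C rose from 14.6, 11.7 and 16 CPM to 21.8, 21.6 and 19.1 CPM without overlap (log2FC 0.56, SE 0.13, adjusted p = 0.0029). ATG4B, the most abundant of them per length at 22 ± 0.91 CPM per kilobase in scrambled cells, rose from 72.5 ± 2.99 to 93.8 ± 8.57 CPM (log2FC 0.37, adjusted p = 0.0031). ATG4A (log2FC 0.19, adjusted p = 0.29) and ATG4D (−0.05, adjusted p = 0.70) were not called. Summed over the 4 proteases, the level was 122, 112 and 115 CPM in scrambled and 147, 135 and 152 CPM in knockdown libraries.

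The LC3 and GABARAP genes diverged. MAP1LC3B, whose lipid-bound product LC3B is the usual marker of autophagosomes, rose from 113, 118 and 114 CPM to 132, 139 and 138 CPM (log2FC 0.24, SE 0.07, adjusted p = 0.011). GABARAPL1 fell from 151, 127 and 130 CPM to 98.4, 74.3 and 68.1 CPM (log2FC −0.76, SE 0.13, adjusted p = 0.00048). In both genes the groups were separate. GABARAP, of whose exon bases 55.7% are shared with other gene models, fell from 160 ± 12 to 118 ± 9.37 CPM (log2FC −0.43, adjusted p = 0.00092), and GABARAPL2 was at 87.1 ± 2.5 and 90.9 ± 3.90 CPM (log2FC 0.06, adjusted p = 0.51).

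Of the summed level of this family per kilobase, MAP1LC3B made up 15% ± 1.02 in scrambled and 20.4% ± 1.25 in knockdown libraries, and GABARAPL1 20.7% ± 1.03 and 14.0% ± 2.41 (SD, n = 3). GABARAP was the largest share in scrambled cells, at 34.0% ± 0.99, and GABARAPL2 in knockdown cells, at 36.4% ± 0.58. These shares depend on the transcript model used, of 1634 bases for GABARAP and 1002 for GABARAPL2. The model used for GABARAPL1 has 81 coding bases, against 351 for GABARAP and GABARAPL2. In CPM without length, GABARAPL2 (90.9) was below GABARAP (118) and MAP1LC3B (136) in knockdown libraries. Summed CPM over the family was 498 ± 23.2 in scrambled and 426 ± 14.6 in knockdown libraries. Reads placed at several sites were listed apart and not counted to genes, so values of MAP1LC3B beside its near-identical copy MAP1LC3B2 (11.2 ± 1.31 and 11.8 ± 1.52 CPM), and of GABARAPL1 beside GABARAPL3 (6 to 37 reads per library), are uncertain.

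All 4 cargo receptors were called, against 61.6% of all tested genes, OPTN and CALCOCO2 upward and SQSTM1 and NBR1 downward. The calls of SQSTM1 and NBR1 depended on the libraries included. OPTN, optineurin, a receptor for ubiquitin-marked mitochondria and bacteria, rose from 67.8, 66.3 and 66.8 CPM to 159, 161 and 156 CPM (2.37-fold, log2FC 1.24, SE 0.07, adjusted p = 4.9e-08). CALCOCO2, which encodes the receptor NDP52, rose from 70.3, 71.7 and 68.0 CPM to 122, 126 and 113 CPM (log2FC 0.78, SE 0.08, adjusted p = 4.1e-06). Both genes varied little within each group.

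SQSTM1, which encodes p62, varied more. It was at 406, 407 and 467 CPM in scrambled and 259, 238 and 375 CPM in knockdown libraries, with knockdown replicate 3 close to the controls but below all of them (log2FC −0.55, SE 0.16, adjusted p = 0.013). SQSTM1 was not called when scrambled replicate 3 was left out (adjusted p = 0.053). MRNIP, listed as C5orf45, overlaps 39.8% of the exon bases of SQSTM1 on the opposite strand and was at 7.83 ± 0.36 and 12.1 ± 4.49 CPM. NBR1, a receptor related to p62, fell from 163 ± 13.1 to 140 ± 11.9 CPM (log2FC −0.22, adjusted p = 0.044), and was not called without scrambled replicate 1 (adjusted p = 0.16), scrambled replicate 2 (adjusted p = 0.095) or knockdown replicate 3 (adjusted p = 0.16) and with DESeq2 (adjusted p = 0.053). Per length SQSTM1 was the most abundant of the 37 genes in every scrambled library, at 143 ± 11.6 CPM per kilobase. In knockdown libraries SQSTM1 stood at 86.7, 79.7 and 125.7 CPM per kilobase and GABARAPL2 at 95.1, 87.7 and 89.2, so SQSTM1 was above GABARAPL2 in replicate 3 alone.

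**Figure D3:**
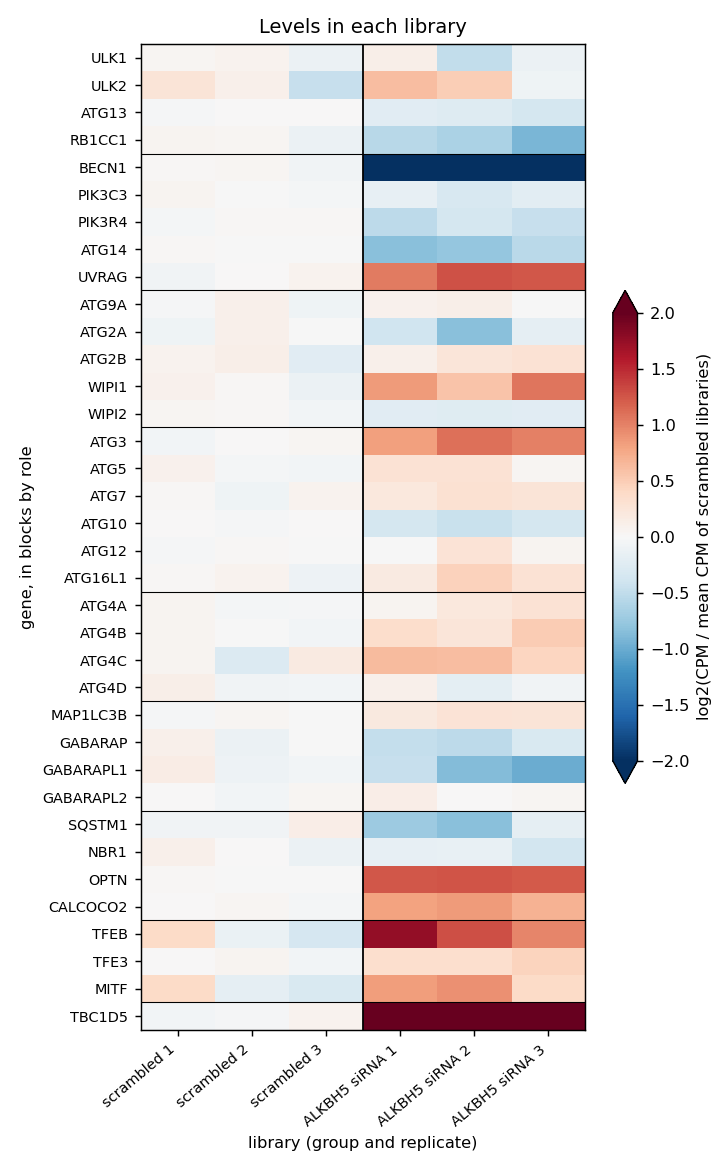
Level of the 36 tested autophagy genes in each library as log2 of CPM over the mean of the scrambled libraries (colour, clipped at 2 in each direction), in blocks by role. OPTN is even across the 3 knockdown libraries, whereas SQSTM1 and ATG2A differ between them, and TBC1D5 and BECN1 lie beyond the ends of the colour scale in all 3.

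All 3 MiT/TFE transcription factors rose, against 30.8% of all tested genes. TFEB, the best known activator of autophagy and lysosomal genes, rose from 7.74, 5.43 and 4.71 CPM to 20.1, 14.6 and 11.7 CPM (log2FC 1.37, SE 0.23, adjusted p = 0.00044). MITF, the melanocyte and osteoclast factor of this family, rose from 20.3, 13.8 and 12.7 CPM to 27.9, 29.4 and 20.4 CPM (log2FC 0.73, SE 0.19, adjusted p = 0.0076). TFEB did not overlap between groups, and in MITF the lowest knockdown library lay just above the highest control. TFE3 was by far the most abundant of the 3 per length, at 50.6 ± 1.84 CPM per kilobase in scrambled cells against 3.24 ± 0.85 for MITF and 2.30 ± 0.61 for TFEB, and rose from 173 ± 6.28 to 223 ± 10.6 CPM (log2FC 0.37, adjusted p = 0.00088).

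**Figure D4:**
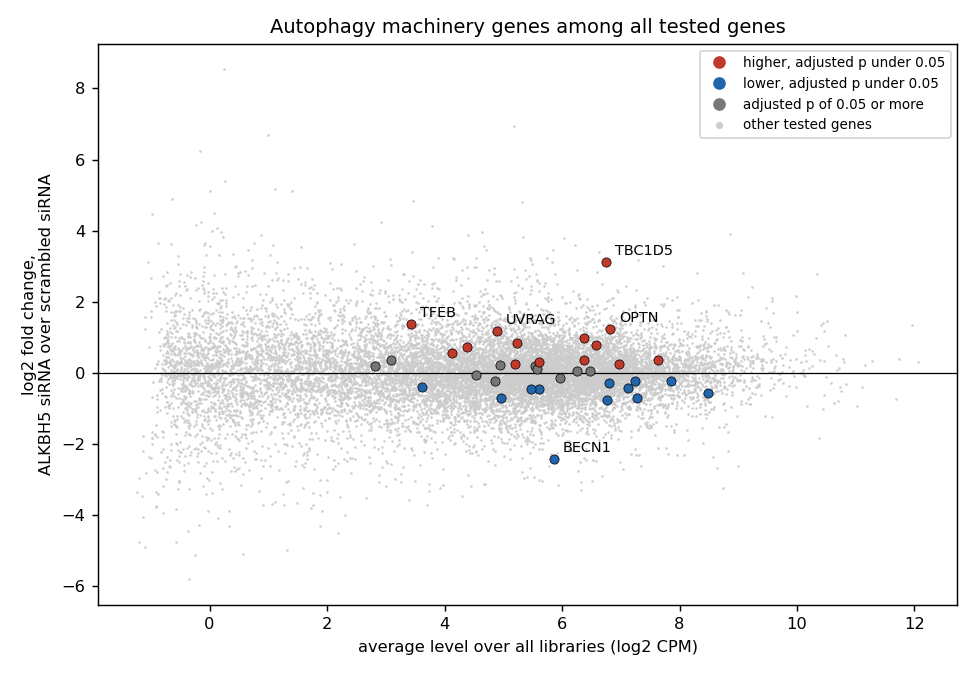
Log2 fold change (vertical axis) against average log2 CPM (horizontal axis) of all 14504 tested genes in grey and of the 36 tested autophagy genes in colour. The genes with a change of 2-fold or more, TBC1D5, TFEB, OPTN, UVRAG and BECN1, are named, and the others changed less. Of all tested genes 61 lie above TBC1D5 and 164 below BECN1, whereas 926 lie above TFEB, 1087 above OPTN and 1164 above UVRAG.

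MiT/TFE factors bind an E-box, and the promoters of the autophagy genes were therefore searched for it. RefSeq promoter windows (GRCh38.p14, 250 bases before to 50 bases after the start) matched 33 of the 37 genes, without RB1CC1, UVRAG, ATG4D and MAP1LC3A. The E-box CACGTG, which reads the same on both strands, was found for 3 of the 33 genes (9.09%). It was in 7.26% of 35116 promoter windows and 8.99% of those of tested genes. The autophagy share counts genes, whereas the shares beside it count single windows of full length, so the units differ. Its longer form TCACGTGA, also the same on both strands and containing CACGTG, was in 1 of the 33 (3.03%), against 0.980% and 1.56%. The 3 genes were ATG3 and TBC1D5, which rose, and ATG14, which fell. Their sites are shown because they are all the matches found, with the E-box or its longer form in capitals, 5′ to 3′ on the minus strand, where all 3 genes lie. The sites are at chr3:112561940-112561969 (ATG3, after the start), chr3:112561963-112561992 (ATG3, before the start), chr3:17742636-17742665 (TBC1D5) and chr14:55411834-55411863 (ATG14).
ATG3, longer form: agagtctagtgTCACGTGAggccccggtgg
ATG3, E-box: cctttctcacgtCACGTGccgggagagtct
TBC1D5, E-box: cgcgagcgtggtCACGTGgccgctggtcac
ATG14, E-box: aaaacaaaatccCACGTGactggctctcct

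Counted from the RefSeq start, the site of TBC1D5 begins 22 bases before it, that of ATG14 21 bases before it, and those of ATG3 18 bases before it and, for the CACGTG core of the longer form, at base 6 of the transcript. The RefSeq start used for TBC1D5 lies well inside the gene as GENCODE 29 draws it, so it is an internal start, and which starts these cells used was not tested. A match describes these letters and does not show binding. In GENCODE 29 the 36 tested autophagy genes had a median of 13 exons in their longest coding transcript, against 9 for all tested genes with a model. Their median 3′ UTR was 1635 bases against 1332. It was 1668.5 bases in the 14 autophagy genes that rose, 1408.5 in the 12 that fell and 1938 in the 10 not called, against 1654, 1230 and 1198 bases in the same classes of all tested genes. Rising genes had a longer median than falling genes in both sets, and among the autophagy genes the class not called had the longest.

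Neighbouring pathway genes, taken from lists by role, also went both ways. Of 14 tested genes among the other core autophagy genes, 6 rose and 5 fell (78.6% called, against 61.6% of all tested genes, median log2FC 0.12). EPG5, a tether of autophagosomes to lysosomes, rose from 47.1 ± 2.90 to 127 ± 34.9 CPM (log2FC 1.43, adjusted p = 0.00013), and ATG16L2, a paralog of ATG16L1, rose by 1.34 on the log2 scale. AMBRA1, a partner of beclin 1, fell from 54.1 ± 1.29 to 32.8 ± 1.40 CPM (log2FC −0.72), and WDR45B, listed as WDR45L and related to the WIPI proteins, fell by 0.59 on the log2 scale. The number that fell was 3 without scrambled replicate 1, without scrambled replicate 2 or without knockdown replicate 1.

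Of 26 genes of the mTORC1, AMPK and Rag inputs, which set the activity of the ULK1 kinase, 9 rose and 10 fell. The share called was 73.1%, against 61.6% of all tested genes, and the median log2FC was 0.02. PRKAG2, a regulatory subunit of AMPK, rose from 4.09 ± 0.22 to 23.4 ± 2.47 CPM (log2FC 2.52), and RHEB, the GTPase that activates mTORC1, rose from 9.62 ± 0.69 to 25.6 ± 2.18 CPM. DEPTOR, an inhibitor of mTOR, fell from 8.21 ± 2.26 to 1.48 ± 0.77 CPM (log2FC −2.47), and LAMTOR1, the lysosomal anchor of the Ragulator complex, fell from 147 ± 12 to 70.3 ± 6.54 CPM. Activators and inhibitors of mTORC1 were thus on both sides.

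Of 13 autophagosome fusion genes, 2 rose and 4 fell (46.2% called, against 61.6% of all tested genes, median log2FC −0.04). STX17, the SNARE of the autophagosome, fell from 49.0 ± 1.6 to 26.7 ± 2.15 CPM (log2FC −0.88, adjusted p = 8.9e-06), whereas its partner SNAP29 rose from 115 ± 4.95 to 159 ± 7.57 CPM (log2FC 0.47). Subunits of the HOPS tether split likewise, with VPS33A at a log2 fold change of 1.05 and VPS18 at −0.71. The number that fell was 2 without scrambled replicate 3.

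Of 19 other cargo receptors and mitophagy genes, 9 rose and 4 fell (68.4% called, against 61.6% of all tested genes, median log2FC 0.24). By direction, 47.4% were higher and 21.1% lower, against 30.8% and 30.8% of all tested genes. The mitophagy receptors BNIP3 and BNIP3L rose by 1.55 and 1.2 on the log2 scale, and FUNDC1, another of them, fell from 33.3 ± 2.23 to 20.7 ± 2.17 CPM (log2FC −0.68). NCOA4, the receptor for ferritin, fell from 285 ± 9.26 to 186 ± 1.41 CPM (log2FC −0.62).

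Of 22 genes listed as lysosomal genes of the TFEB network, 8 rose and 5 fell (59.1% called, median log2FC 0.09). Whether each is a TFEB target in these cells was not tested. Cathepsin B (CTSB) rose from 854 ± 55.3 to 1946 ± 239 CPM and the lipid phosphatase gene TMEM55A from 17.8 ± 2.68 to 27.8 ± 1.71 CPM, while alpha-galactosidase (GLA) fell from 48.1 ± 3.44 to 22 ± 1.75 CPM and the peptidase TPP1 from 265 ± 4.98 to 143 ± 26.1 CPM. The number that fell was 8 without knockdown replicate 3. The share of this list called was close to that of all tested genes.

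**Figure D5:**
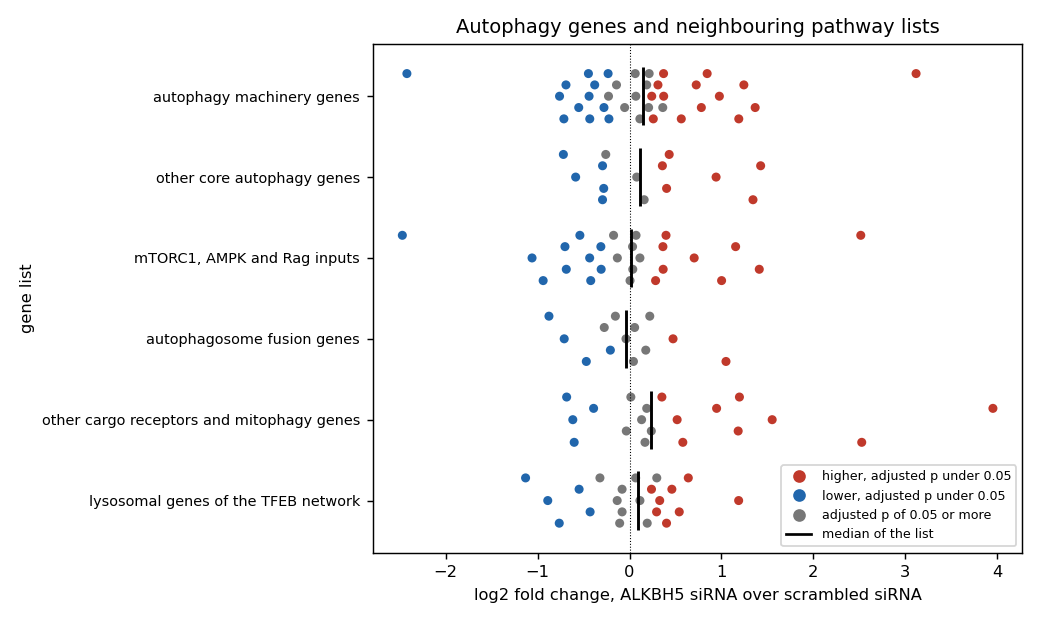
Log2 fold change (horizontal axis) of each tested gene in the autophagy machinery and in 5 neighbouring lists, with a bar at each list's median. Medians run from −0.04 to 0.24, and each list holds called genes on both sides of 0.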

How the data were processed

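Per the labels' protocols, libraries came from a stranded mRNA kit. The authors deposited unnormalised counts of reads for each gene symbol in 6 libraries. Per the submitters' processing notes, CASAVA 1.8.2, TopHat2, SAMtools and HTSeq were used with genome build hg19. For the annotation and the strand setting nothing is stated in the labels. It is therefore not known whether reads of genes that overlap on opposite strands were separated, and 0.84% ± 0.02 of uniquely placed reads in scrambled and 0.75% ± 0.01 in knockdown libraries were listed as ambiguous (SD, n = 3). GENCODE 29 (GRCh38) models show exon overlap for 13 of the 37 genes. Ambiguous and multiply placed reads were outside the counts, and HTSeq's 5 summary entries were left out of library sizes and tests.

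The test was that of edgeR 4.0.16 under R 4.3.3 (filterByExpr, which kept 14504 genes, TMM scaling, robust glmQLFit and 2-sided glmQLFTest with group as the single term), with Benjamini-Hochberg adjustment over all tested genes at 0.05. Values are TMM-scaled CPM, mean ± SD over 3 libraries, and 1 CPM rests on 19 to 24 reads. Levels between genes were compared as CPM per kilobase of the longest coding transcript in GENCODE 29. No 2 libraries of a group differed by as little as sampling noise (chi-square over degrees of freedom 6.21 to 17.2).

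The genes, lists and tests were chosen with earlier results of these data known. Values per library are given for called genes with an absolute log2 fold change of at least 0.5 and for ULK1, BECN1, ATG5, ATG7, MAP1LC3B, SQSTM1 and TFEB. From each neighbouring list up to 2 rising and 2 falling genes are named, chosen by log2 fold change among called genes whose mean log2 CPM reached 2. Alternatives were RLE scaling, library totals, 2 other filters, DESeq2 1.42.0, limma-voom (limma 3.58.1), no robust moderation, glmTreat against 1.5-fold, a replicate block and each library left out.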

Additional observations from a re-analysis of the deposited data

How the results depend on the processing

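Against a change of 1.5-fold (glmTreat), 7 of 36 autophagy genes were higher (UVRAG, WIPI1, ATG3, OPTN, CALCOCO2, TFEB and TBC1D5) and 1 lower (BECN1). Of all 14504 tested genes 1891 were higher and 1710 lower (24.8% called). Next by glmTreat adjusted p came GABARAPL1 (0.11), ATG14 (0.13) and RB1CC1 (0.16), which fell, and MITF (0.28), which rose. In the other alternatives 12 to 16 autophagy genes were higher and 10 to 13 lower, and no called autophagy gene changed direction in any alternative. RLE scaling, both other filters, limma-voom and the fit without robust moderation changed no call among the 36. Library totals shifted the median of all genes by −0.07 on the log2 scale.

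Deviations from the group mean correlated at 0.33, 0.06 and 0.35 between libraries of the same number. Between libraries of different numbers the correlations ran from −0.37 to 0.08. Deviations from a group mean cancel within the group, so positive correlations in some pairs bring negative ones in others. The contrast between same and different numbers is thus partly built in. Scrambled replicate 2 correlated about as weakly with knockdown replicate 1 (0.08) as with its own number (0.06). Replicates 1 and 3 thus went more with their own number than with the other. The labels name no pairing, so the main test used none, and whether same-numbered libraries shared a batch was not tested. With the replicate number as a block, 16 autophagy genes were higher and 13 lower, and 4865 and 4895 of all tested genes (67.3% called, against 61.6% without the block). Of the tested autophagy genes TFEB, ULK2, ATG4A and ATG10 had the fewest reads, and TFEB rested on as few as 90 reads in a library. The SE of the log2 fold change was 0.23 for TFEB and 0.22 for ULK2, against 0.15 for ATG4A and 0.12 for ATG10. How far low counts or differences between libraries set these errors was not tested.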
